A study of Homo sapiens with 3 samples.

Results

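MiR-155, miR-146a, miR-146b and miR-142 are microRNAs (miRNAs) tied to immune signaling and blood cells, and their levels were examined in 3 cancer-derived cell lines. The 7 mature miRNAs were taken by name from the deposited tables, which list 2588 mature miRNAs: hsa-miR-155-5p, hsa-miR-155-3p, hsa-miR-146a-5p, hsa-miR-146b-5p, hsa-miR-146b-3p, hsa-miR-142-3p and hsa-miR-142-5p, written without the species prefix from here on. They come from 4 precursors and each was listed at 1 locus. The other arm of MIR146A, miR-146a-3p, is given beside them but is not counted among the 7. Small RNA had been sequenced from C643 (anaplastic thyroid carcinoma), ES-2 (ovarian carcinoma) and Huh-7 (hepatocellular carcinoma). Each was an untreated parental line that carried MIR21 and was harvested 48 h after seeding. Each line is a single tumor-derived line, and each gave 1 library, so that no difference below has a replicate check.

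Mature miRNAs are released from hairpin precursors, with a 5p product from one arm and a 3p product from the other. Bases 2 to 8 of the mature strand, the seed, pair with target mRNAs, so miRNAs with 1 seed share many targets. MiR-155 is processed from the non-coding transcript MIR155HG, is induced in activated lymphocytes and macrophages, and is a known oncomiR of B-cell lymphoma. MiR-146a is induced through NF-kB and represses TRAF6 and IRAK1, which act upstream of NF-kB, in a negative feedback loop. MiR-146b carries the same seed and is known for its high levels in papillary thyroid carcinoma. MiR-142 is regarded as a miRNA of hematopoietic cells.

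The mature sequences below, from RefSeq (GRCh38.p14), are shown because the members carry different seeds, apart from the miR-146 pair, which is nearly identical. Capitals mark the seed, and sequences read 5′ to 3′.
miR-155-5p: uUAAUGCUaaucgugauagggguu
miR-155-3p: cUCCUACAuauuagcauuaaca
miR-146a-5p: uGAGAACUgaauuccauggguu
miR-146b-5p: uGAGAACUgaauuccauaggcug
miR-142-3p: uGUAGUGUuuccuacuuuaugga
miR-142-5p: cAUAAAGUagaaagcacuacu

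The 7 members carry 6 different seeds. MiR-146a-5p and miR-146b-5p share GAGAACU, which pairs with AGUUCUC in a target, and their first 17 bases are identical. Counted from 1 at the 5′ end, with the base of miR-146a-5p first, they differ by G18A and U21C, and miR-146b-5p is 1 base longer. A read that ends within the shared bases cannot be assigned to either, and how such reads were handled is not given in the sources used here. Of the other mature miRNAs in the sequence table, miR-7153-5p has the miR-146 seed and had 0 reads in each library. MiR-5590-3p has the seed of miR-142-5p and had 2 reads in Huh-7 and 0 in C643 and ES-2. No other miRNA of that table has the seed of miR-155-5p or of miR-142-3p.

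On GRCh38, MIR155 spans bases 25573980 to 25574044 of the plus strand of chromosome 21, in an exon of the lincRNA gene MIR155HG. MIR146A spans bases 160485352 to 160485450 of the plus strand of chromosome 5, in an exon of the lincRNA gene MIR3142HG. MIR146B, bases 102436512 to 102436584 of the plus strand of chromosome 10, overlaps no other annotated gene. MIR142 spans bases 58331232 to 58331318 of the minus strand of chromosome 17, in an exon of AC004687.1, and an intron of TSPOAP1-AS1 covers it on the opposite strand. The only annotated miRNA gene within 10 kb of a member precursor is MIR4736, 4658 bases from MIR142, and miR-4736 had 0 reads in each library. MiR-3142 lies in the same host gene as miR-146a, 10.8 kb away. This neighbor was looked up after the values had been seen, and it also had 0 reads in each library.

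Levels are given as reads and as the share of all miRNA reads of the library, with a Wilson 95% confidence interval. The C643 library held 8183100 miRNA reads, that of Huh-7 2173587 and that of ES-2 1663181. A miRNA with 0 reads could hold up to 3.67e-05%, 0.000138% and 0.00018% of these libraries, the share of 3 reads. Intervals and limits cover counting error only. The mature forms are 21 to 24 bases long and shares were not divided by length. In a bulk library, fewer cells that express a miRNA and less of it per cell cannot be told apart. Of markers for the labeled tissues, the hepatocyte miRNA miR-122-5p held 13.3% in Huh-7, 0.00572% in C643 and 0.000361% in ES-2. MiR-204-5p, known from thyroid tissue, had 7 reads in C643 against 141 in Huh-7, whereas miR-7-5p was highest in C643 with 0.438%.

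Together the 7 members made up 0.876% of ES-2 reads (95% CI 0.862 to 0.890), 0.736% of Huh-7 reads (0.724 to 0.747) and 0.502% of C643 reads (0.498 to 0.507). The intervals of the sums did not overlap, but Huh-7 fell below C643 when the deposited values were divided by 1000000 (0.450% against 0.482%) and when the most abundant member of each line was left out (0.0293% against 0.254%, with ES-2 between them at 0.0951%). The make-up of the sums differed between the lines. In ES-2, miR-155-5p alone gave 89.2% of the member reads. In Huh-7, miR-146a-5p gave 96.0% of them. In C643, miR-155-5p gave 49.4% and miR-146a-5p 48.9%. MiR-142 contributed to the sum in ES-2 with 3.72% for the 3p arm and 1.75% for the 5p arm.

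**Figure D1:**
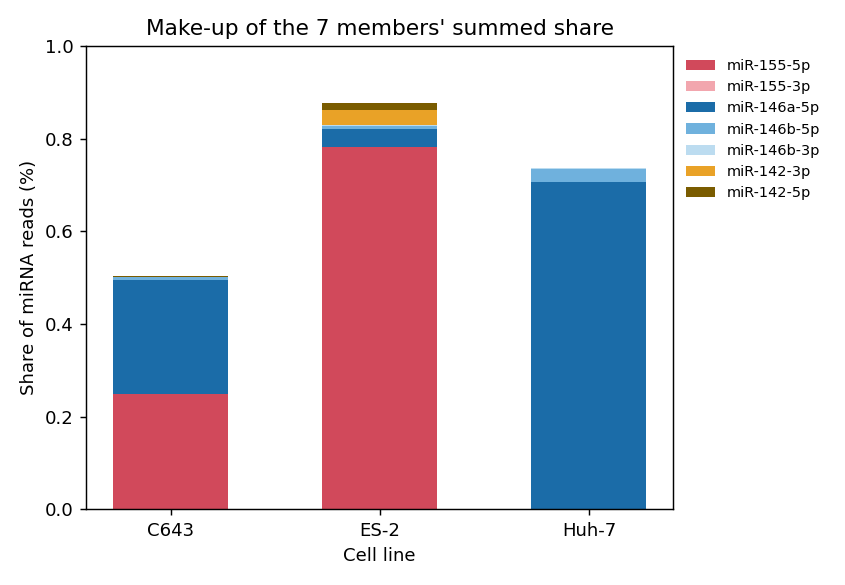
Stacked bars give the share of miRNA reads (percent, linear axis from 0) held by the 7 members in the single library of C643, ES-2 and Huh-7, with 1 color per miRNA. MiR-155-5p fills most of the ES-2 bar, miR-146a-5p most of the Huh-7 bar, and both fill the C643 bar in near-equal parts.

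MiR-155-5p, the main product of MIR155, had 12992 reads in ES-2, 20326 in the deeper C643 library and 0 in Huh-7. This was 0.248% of reads in C643 (95% CI 0.245 to 0.252) and 0.781% in ES-2 (0.768 to 0.795). It ranked 43 of the 649 miRNAs with a read in C643 and 18 of 608 in ES-2. The order was thus ES-2, C643 and Huh-7, with no overlap of intervals. By share, ES-2 exceeded C643 by 3.15-fold (95% CI 3.08 to 3.21). Against Huh-7, the share of miR-155-5p was at least 1800-fold higher in C643 and at least 5660-fold higher in ES-2. Both bounds were computed against 3 reads in Huh-7.

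An absence of this kind was uncommon among abundant miRNAs. Of the 21 miRNAs with 10000 or more reads in ES-2, miR-155-5p was the 1 without a read in Huh-7. The same held for the 65 miRNAs with 10000 or more reads in C643. At 500 or more reads, 5 of 98 miRNAs of ES-2 and 9 of 180 of C643 had no read in Huh-7. Among the 5 were miR-155-5p and miR-142-3p. These read limits were chosen after the values had been seen. Per read of miR-155-5p, miR-21-5p, the most abundant miRNA of each library, gave 115 reads in C643 (95% CI 113.6 to 116.8) and 36.1 in ES-2 (35.5 to 36.8).

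**Figure D2:**
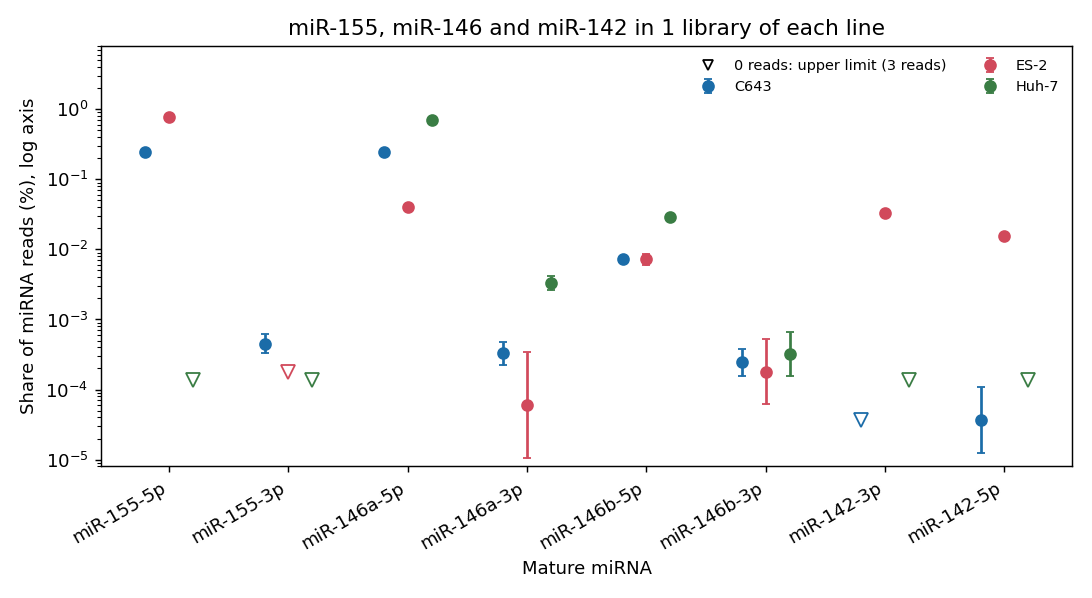
Points give the share of miRNA reads (percent, log axis) of each member and of miR-146a-3p in 1 library each of C643, ES-2 and Huh-7, with Wilson 95% intervals of counting error, and open triangles give the upper limit of 3 reads where a library had 0 reads. MiR-155-5p and both arms of miR-142 lie at their limits in Huh-7, whereas miR-146a-5p is highest there.

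MiR-146a-5p had 15352 reads in Huh-7, 20120 in C643 and 661 in ES-2. Its share was 0.706% in Huh-7 (95% CI 0.695 to 0.718), 0.246% in C643 (0.243 to 0.249) and 0.0397% in ES-2 (0.0368 to 0.0429), at ranks 25, 45 and 89. Hence the line without a read of miR-155-5p had the highest share of miR-146a-5p, and the line with the highest share of miR-155-5p had the lowest. By share, Huh-7 exceeded ES-2 by 17.8-fold (95% CI 16.4 to 19.2) and C643 by 2.87-fold (2.81 to 2.93), and C643 exceeded ES-2 by 6.19-fold (5.73 to 6.69). Within a library, the ratio of miR-155-5p to miR-146a-5p was 1.01 in C643 (95% CI 0.991 to 1.03) and 19.7 in ES-2 (18.2 to 21.3). In C643 the read counts of miR-155-5p and miR-146a-5p were thus within counting error of each other.

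MiR-146b-5p had 629 reads in Huh-7, 603 in C643 and 120 in ES-2. Its share was 0.0289% in Huh-7 (95% CI 0.0268 to 0.0313), 0.00737% in C643 (0.0068 to 0.00798) and 0.00722% in ES-2 (0.00603 to 0.00863). C643 and ES-2 could not be separated by share (1.02-fold, 95% CI 0.838 to 1.25), and Huh-7 lay above C643 by 3.93-fold (3.51 to 4.40) and above ES-2 by 4.01-fold (3.29 to 4.92). C643, the thyroid line, therefore did not hold the highest share of miR-146b-5p among these libraries. It is an anaplastic thyroid carcinoma line, whereas the high levels known for miR-146b are those of papillary thyroid carcinoma.

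The pair with the miR-146 seed was dominated by miR-146a-5p in each line, but to unequal degrees. MiR-146a-5p exceeded miR-146b-5p 33.4-fold in C643 (95% CI 30.8 to 36.2), 24.4-fold in Huh-7 (22.5 to 26.5) and 5.51-fold in ES-2 (4.53 to 6.75). The intervals did not overlap between any of the lines. Summed over the pair, the seed held 0.735% of Huh-7 reads, 0.253% of C643 reads and 0.047% of ES-2 reads. This sum does not change where a read of one was counted as the other.

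MiR-142-3p had 542 reads in ES-2, or 0.0326% (95% CI 0.030 to 0.0354), and 0 reads in C643 and in Huh-7. MiR-142-5p had 255 reads in ES-2, or 0.0153% (0.0136 to 0.0173), 3 in C643 and 0 in Huh-7. Both arms of the hairpin were thus seen in ES-2 and were at or under 3 reads in the other lines. By share, miR-142-3p was at least 889-fold higher in ES-2 than in C643 and at least 236-fold higher than in Huh-7. For miR-142-5p, ES-2 exceeded C643 by 418-fold (95% CI 141 to 2041) and was at least 111-fold higher than Huh-7. Of the 98 miRNAs with 500 or more reads in ES-2, miR-142-3p was the 1 without a read in both other lines. The limit of 500, chosen after the values had been seen, lies close under the 542 reads of miR-142-3p. At a limit of 100 reads, 2 of 164 had no read in both other lines, and the other was miR-3689a-5p. At most 3 reads in both other lines were seen for 5 of these 164. In ES-2 the arms of miR-142 ranked 97 and 121, and miR-155-5p gave 24.0 reads per read of miR-142-3p (95% CI 22.0 to 26.2).

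Since miR-142 is known from blood cells, 9 further blood cell miRNAs were read beside it. In each line 5 of the 9 had a read, and they summed to 0.0146% in ES-2, 0.0103% in C643 and 0.138% in Huh-7. In Huh-7, miR-486-5p, an erythroid miRNA with 2766 reads there, gave 91.9% of the sum. Without it the sums were 0.0140%, 0.0082% and 0.0112%. MiR-223-3p and miR-223-5p, which define myeloid cells, had 0 reads in ES-2. MiR-144-3p and miR-144-5p, of the erythroid lineage, also had 0 reads in ES-2, miR-451a had 1 and miR-150-5p, of mature lymphocytes, had 2. In ES-2 miR-342-3p, with 206 reads, gave 85.1% of the sum. Its share was 0.0124% in ES-2, 0.0103% in Huh-7 and 0.00712% in C643. MiR-342-5p had 24 reads in ES-2 (0.00144%), 18 in Huh-7 (0.000828%) and 17 in C643 (0.000208%). By share, ES-2 was not separated from Huh-7 for miR-342-3p (1.21-fold, CI 0.994 to 1.47) or miR-342-5p (1.74-fold, CI 0.907 to 3.41). ES-2 exceeded C643 by 1.74-fold for miR-342-3p (CI 1.48 to 2.04) and by 6.95-fold for miR-342-5p (CI 3.58 to 13.8). Between C643 and ES-2, miR-342-5p passed 4-fold toward ES-2 (log2 difference of the deposited values -2.56). This was 1 of the 3 blood cell miRNAs tested there, beside 10.8% of all 351, and 0 passed toward C643, beside 15.4%. Between ES-2 and Huh-7, 0 of 3 passed toward ES-2, beside 19.5% of all 390. Toward Huh-7 it was 1 of 3, miR-486-5p, beside 27.7%. Against C643, miR-342-5p reached the deposited value needed for testing only through ES-2 (16.7, against 1.99 in C643). Against ES-2, miR-486-5p reached it only through Huh-7 (779, against 6.25 in ES-2). Both of these calls are thus not read against the share of all miRNAs. Between C643 and Huh-7, miR-486-5p passed toward Huh-7 as 1 of 2, beside 25.1% of all 399, and 0 passed toward C643, beside 22.6%. The part of other cells in the miR-142 reads of ES-2, 797 over both arms, was not tested.

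The arms of each precursor were compared within each library, where no scaling between libraries enters. For MIR155 the 5p arm led. MiR-155-3p was read 37 times in C643 and was at 0 in both other lines. The 5p arm thus exceeded the 3p arm 549-fold in C643 (exact 95% CI 398 to 780) and at least 4331-fold in ES-2, computed against 3 reads. At the ratio of C643, the 12992 reads of miR-155-5p in ES-2 would go with 23.6 reads of miR-155-3p, and 0 were counted. Of 40 precursors with 1000 or more reads of the leading arm in both lines and 10 or more of the other arm in C643, 2 had no read of the other arm in ES-2, let-7g and miR-155. Without the limit on the other arm there were 47 precursors. Of these, 5 shifted at least as far as MIR155 on the log2 scale, in either direction, itself included.

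For MIR146A the 5p arm led by 213-fold in Huh-7 (95% CI 169 to 273), 745-fold in C643 (512 to 1131) and 661-fold in ES-2 (118 to 26147). MiR-146a-3p had 72 reads in Huh-7, 27 in C643 and 1 in ES-2. The ratio was lower in Huh-7 than in C643 beyond counting error, whereas the single 3p read of ES-2 did not set it apart from either. Shifts of this size were common. Of 57 precursors with 1000 or more reads of the leading arm in both C643 and Huh-7, 18 shifted at least as far as the 1.81 of MIR146A on the log2 scale, in either direction, itself included.

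The ratio was smaller for MIR146B. MiR-146b-5p exceeded miR-146b-3p 30.1-fold in C643 (95% CI 19.3 to 49.7), 40.0-fold in ES-2 (13.4 to 197) and 89.9-fold in Huh-7 (43.4 to 224), with 20, 3 and 7 reads of the 3p arm. All 3 intervals overlapped. Of the 4 precursors, MIR142 had the most even arms. In ES-2 the 3p arm exceeded the 5p arm 2.13-fold (95% CI 1.83 to 2.48), so that 32.0% of its reads came from the 5p arm. Over 86 precursors of C643, 49 of ES-2 and 72 of Huh-7 with 1000 or more reads of the leading arm, the median ratio of the arms was 43.8, 104 and 63.8. MIR155 was among the more one-sided, with 16 of 86 at or above it in C643 and 2 of 49 in ES-2, itself included. MIR146A was more one-sided than MIR155 in C643, with 11 of 86 at or above it, and had 24 of 72 in Huh-7. In these counts fewer than 3 reads of the other arm were set to 3. The other arm had no read in 12 of 86 precursors of C643 and in 5 of 49 of ES-2, MIR155 among the 5. The order among those 5 follows the reads of the leading arm only.

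**Figure D3:**
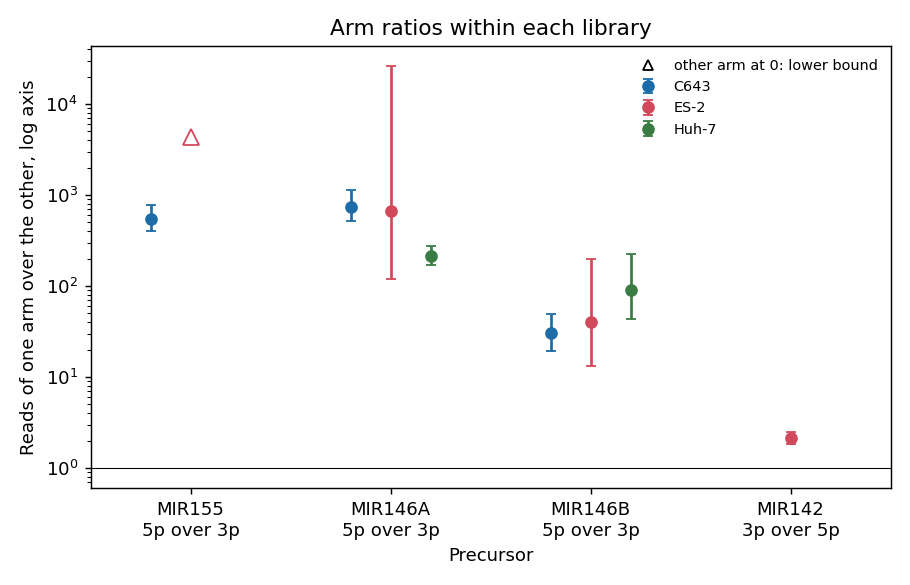
Points give the reads of the named arm over those of the other arm (log axis) for MIR155, MIR146A, MIR146B and MIR142 within 1 library of C643, ES-2 and Huh-7, with exact 95% intervals of counting error; the open triangle is a lower bound against 3 reads, and lines with 3 or fewer reads of both arms have no point. The bound for MIR155 in ES-2 lies above the interval in C643, and MIR142 in ES-2 lies nearest to 1.

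ES-2 and Huh-7 share a deposited table and were also compared on its own scale, reads divided by a library factor. Differences were taken as log2(value + 1), which understates those of low miRNAs. The 390 miRNAs that reached 10 in either line were tested, and a difference of 2 counted as 4-fold. Of the 7 members, 5 were tested, since miR-155-3p and miR-146b-3p were too low in both lines. MiR-155-5p (log2 difference 13.14), miR-142-3p (8.56) and miR-142-5p (7.48) passed 4-fold toward ES-2, and miR-146a-5p (-3.23) passed it toward Huh-7. The first 3 had 0 reads in Huh-7, so the pseudocount sets the size of their differences, which were 9.82, 5.27 and 4.23 with a pseudocount of 10. MiR-146b-5p, at -1.08, did not reach 4-fold. Hence 3 of 5 were higher in ES-2 against 19.5% of all 390 miRNAs, and 1 of 5 was higher in Huh-7 against 27.7%. The 3 reached 10 only through ES-2. With 0 reads in Huh-7 and a pseudocount of 1, any such miRNA passes 4-fold. The filter thus fixed these 3 calls under each scaling, and they are not read against the share of all miRNAs. Scaled to the column sum, the background became 14.9% and 41.4%, and with the median log2 ratio of -0.36 set to 0 it became 24.2% and 25.2%, whereas the calls of the members stayed the same. The miR-142 arms come from 1 precursor and are not independent. On the deposited scale Huh-7 exceeded ES-2 by 9.42-fold for miR-146a-5p (95% CI 8.71 to 10.2) and by 2.13-fold for miR-146b-5p (1.75 to 2.61), both lower than by share because the column sums differ.

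**Figure D4:**
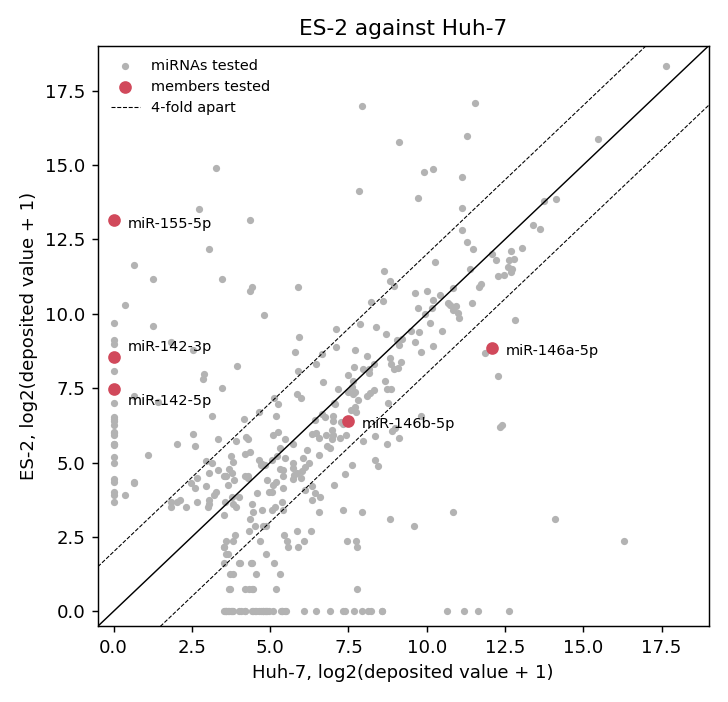
Each point is 1 of the 390 miRNAs tested, with log2(deposited value + 1) in Huh-7 on the horizontal axis and in ES-2 on the vertical axis; the solid line marks equal values and dashed lines 4-fold. MiR-155-5p, miR-142-3p and miR-142-5p lie on the vertical axis at 0 in Huh-7, and miR-146a-5p lies under the lower dashed line.

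C643 was deposited in a separate table and may carry another normalization, so its levels are set beside the others as a description. Against ES-2, 5 members were among the 351 miRNAs tested. MiR-146a-5p was at least 4-fold higher in C643 (log2 difference 2.36), as were 15.4% of all miRNAs tested, and both arms of miR-142 (-8.56 and -7.04) passed 4-fold toward ES-2, as did 10.8%. MiR-155-5p fell just short of 4-fold, at -1.92. Against Huh-7, 3 members were among the 399 tested. MiR-155-5p was at least 4-fold higher in C643 (log2 difference 11.22), against 22.6% of all tested. With a pseudocount of 10 the differences were -5.27 for miR-142-3p and -4.18 for miR-142-5p against ES-2, and 7.90 for miR-155-5p against Huh-7. Each of these reached 10 through 1 line only, with at most 3 reads in the other. At a pseudocount of 1 the filter thus fixed their calls. None of the 3 members tested against Huh-7 was at least 4-fold higher there, against 25.1%, with miR-146a-5p at -0.87 and miR-146b-5p at -1.31. Scaled to the column sum, these backgrounds became 17.4% and 35.5%, again with the same calls of members.

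Of 12 other miRNAs linked to NF-kB or Toll-like receptor signaling, 8 were tested between ES-2 and Huh-7. At least 4-fold higher in ES-2 were 4 of them, miR-9-5p, miR-125b-5p, miR-132-3p and miR-10a-5p, and 0 were higher in Huh-7, beside 19.5% and 27.7% of all 390. The median log2 difference of the 8 was 1.60, beside -0.54 over all 390. MiR-9-5p and miR-10a-5p reached 10 only through ES-2, with deposited values of 6.48 and 5.63 in Huh-7. Their calls and the median are thus not read against all miRNAs. MiR-9-5p, which represses NFKB1, had 23 reads in Huh-7 against 359 in ES-2. MiR-132-3p, which targets the coactivator EP300, had 85 against 149. It passed 4-fold on the deposited scale only. By share ES-2 exceeded Huh-7 by 2.29-fold for miR-132-3p (95% CI 1.74 to 3.03). MiR-187-3p, linked to interleukin-10 signaling, had 32 reads in Huh-7 and 0 in C643 and ES-2. Summed over all 12, the list held 35.2% of Huh-7 reads, 33.2% of C643 reads and 31.6% of ES-2 reads, of which miR-21-5p gave 94.5%, 86.3% and 89.4%. Without miR-21-5p the order turned, to 1.95% of Huh-7 reads, 4.55% of C643 reads and 3.34% of ES-2 reads. Between C643 and Huh-7, 5 of 8 were at least 4-fold higher in C643, the 4 named and let-7e-5p. Toward Huh-7 it was 0 of 8. Of all 399, 22.6% passed toward C643 and 25.1% toward Huh-7. Let-7e-5p passed 4-fold on the deposited scale only. By share C643 exceeded Huh-7 by 3.57-fold for let-7e-5p, with an upper 95% limit of 3.65. The median log2 difference of the 8 was 2.70, beside -0.21 over all. Between C643 and ES-2 it was 0 of 8 in either direction.

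Finally, 211 other miRNAs at 100 or more in a library were ranked by how closely their pattern over the 3 libraries followed that of the leading arm of each precursor. The measure was the largest gap between log2 shares centered on each miRNA's mean, with 0 to 2 reads set to 3. For miR-155-5p the nearest were let-7i-5p (gap 1.03), miR-10a-5p (1.34) and miR-199b-3p (1.38). These had 31, 20 and 5 reads in Huh-7, where miR-155-5p had 0. For miR-146a-5p they were miR-1306-5p (0.21), miR-23b-3p (0.56) and miR-27b-3p (0.62), and miR-23b-3p and miR-27b-3p are products of 1 cluster. For miR-146b-5p they were miR-26b-5p (0.09), miR-374b-5p (0.10) and miR-320a (0.11), each of which had near-equal shares in C643 and ES-2 and a higher one in Huh-7. For miR-142-3p the nearest was its own other arm (0.73), followed by miR-3689f (1.04), with 183 reads in ES-2 and 1 in C643, and miR-31-5p (1.77), with 4574 reads in ES-2, 14 in C643 and 2 in Huh-7. Over 3 libraries this order is a description only.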

How the data were processed

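Small RNA libraries were prepared from 50 ng of total RNA with a NEXTflex kit for Illumina HiSeq sequencing. The submitters' processing notes name cutadapt 1.14, Bowtie2 2.3.3, SAMtools 1.5, featureCounts 1.5.3, edgeR 3.18.1 and the build hg38; parameters and the miRNA annotation version are not given in the sources used here. The authors deposited a signal (reads at a locus over a library factor) in 2 tables (C643, and ES-2 with Huh-7). Columns sum to 959302, 1154552 and 612015. Dividing by the smallest value gave whole reads for 100% of nonzero values (within 0.001), with 1 read worth 0.117, 0.694 and 0.282. The depth was 8183100, 1663181 and 2173587 reads.

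Loci of 1 mature miRNA were summed. Shares have Wilson and ratios exact binomial 95% intervals (SciPy 1.17.1). A fold against 0 reads was taken against 3 reads as a lower bound; the design had set this for 1 to 3 reads too, where ratios with intervals are given instead. With 1 library a line, no p-value was computed. Members, lists and the rule for named miRNAs (all members, miRNAs of the same seed or within 10 kb, the 3 most alike per precursor, the NF-kB and marker lists) were chosen with earlier results of these data known. Genes were taken from GENCODE version 29. The alternatives concerned pseudocount, filter, fold, scaling, denominator and loci.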

Additional observations from a re-analysis of the deposited data

How the results depend on the processing

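No paired analysis was possible because the lines have a single library each. The 4-fold calls of the members stayed as given under pseudocounts of 0.5 and 10, a filter at 100, scaling to the column sum and the median ratio set to 0. For miR-155-5p against Huh-7 and for the miR-142 arms, the filter fixed the calls. Of these settings, only the pseudocount of 10 could have changed them. At 2-fold, miR-146b-5p joined those higher in Huh-7, which made 2 against ES-2 and 1 against C643, and miR-155-5p joined those higher in ES-2 than in C643. At 8-fold, miR-146a-5p was lost between C643 and ES-2, which left 0 higher in C643. Without a filter, miR-155-3p joined those higher in C643, 2 against ES-2 and 2 against Huh-7. Scaled to the column sum, the log2 difference of miR-146b-5p between C643 and ES-2 turned from -0.23 to 0.030.

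Given for C643, then ES-2, then Huh-7, the summed share of the 7 members was 0.482%, 1.01% and 0.450% with a denominator of 1000000, which put Huh-7 below C643. It was 0.704%, 1.22% and 1.10% without miR-21-5p in the denominator, 0.604%, 1.03% and 0.806% with 1 locus per mature miRNA, and 0.254%, 0.0951% and 0.0293% without the most abundant member. The summed share of miR-146a-5p and miR-146b-5p was 0.243%, 0.0542% and 0.450%, then 0.355%, 0.0654% and 1.10%, then 0.304%, 0.055% and 0.806% in the first 3 of these settings. These changes follow from the construction of each setting. Of the shares of single members, 28 moved beyond counting error and 35 did not. The 35 include the shares of 0, which no setting could move. The 9 arm ratios and 9 ranks stayed within their limits. For MIR155 in ES-2, with 0 reads of miR-155-3p, the ratio had no upper limit, so this check could not fail. That ratio went from 4331 to 25985 with 0.5 reads added to each arm. The Euclidean distance named the same 12 miRNAs of like pattern. Depth limited miR-155-3p, miR-146b-3p and miR-146a-3p most, whose 3p reads numbered at most 3 in ES-2.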
